A study of Mus musculus with 12 samples.

Results

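Long non-coding RNA (lncRNA) genes expressed in the liver of 12 male C57BL/6J mice were examined. The members were chosen by the biotype deposited with each gene and by a level that averaged 1 FPKM or more across the 12 mice, where FPKM is fragments divided by gene length and by the fragments sequenced. This selection kept 362 of the 9484 rows with a long non-coding biotype, in a table of 54532 genes, and left out the gene named Gm10680. Of the others, 5515 rows were at 0 in every mouse. The members comprised 149 lincRNA, 138 antisense, 64 processed_transcript and 11 sense_intronic genes.

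Liver RNA was sequenced from 3 mice in each of 4 diet groups, each mouse being 1 sample. Mice were 5 weeks old when the diets began and ate them for 26 weeks. ND mice ate a normal diet, and control mice ate a high-fat diet. HYA mice ate the high-fat diet with 1% HYA, a hydroxy fatty acid that gut bacteria make from linoleic acid, and LA mice ate it with 1% linoleic acid itself. The labels name no engineered allele. The study asked how the high-fat diet changes the liver and whether HYA or its precursor alters that change.

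Long non-coding RNAs are transcripts without a long open reading frame. Some, such as Malat1 and Neat1, organize bodies in the nucleus, some are host transcripts from which small nucleolar RNAs (snoRNAs) or microRNAs are cut, and some run antisense to coding genes. In the liver, H19 is abundant before birth and low in the adult, and an antisense transcript lies beside the gene of the hepatocyte transcription factor HNF4A.

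Fragments assigned to genes numbered 17169064 to 25220880 per mouse, and the members together took 0.556% to 0.701% of them. The correlation of log2 levels between mice of 1 group was 0.983 to 0.990 across all genes tested and 0.928 to 0.966 across the members. Hepatocyte markers identified the tissue, with a summed level of 8 genes between 28570 and 46170 FPKM in the 12 mice. The 8 lymphocyte markers summed to between 1.79 and 4.54 FPKM, and none of them reached the mean of 1 FPKM.

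Mature microRNA sequences are shown for the members whose host transcript differed between diets and whose microRNA has a well-known name, Mir22hg and H19. The libraries measured the host transcripts only, and the mature microRNAs were not measured. Capitals mark the seed, bases 2 to 8, through which a microRNA pairs with its targets. Sequences are from RefSeq (GRCm38.p6).
mmu-miR-22-5p: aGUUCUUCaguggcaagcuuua
mmu-miR-22-3p: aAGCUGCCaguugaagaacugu
mmu-miR-675-5p: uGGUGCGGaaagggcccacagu
mmu-miR-675-3p: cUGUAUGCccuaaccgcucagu

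No seed was shared among these 4. The miR-22 arms lay on the plus strand at chr11:75463734-75463755 and chr11:75463772-75463793, within Mir22hg. Both miR-675 arms lay on the minus strand of chromosome 7 within H19, at chr7:142577112-142577133 and chr7:142577078-142577099. In all, 11 members contained a microRNA row on their own strand and 18 contained a snoRNA row.

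Promoter windows are shown for the 5 members that differed both between control and ND and between HYA and control, and whose RefSeq start lay within 7 bases of the deposited start. Each window runs from 250 bases before to 50 bases after the RefSeq start (RefSeq, GRCm38.p6). Capitals mark GGGCGG or its complement CCGCCC, the core of a GC box.
BC024386, chr7:140905771-140906070, plus strand: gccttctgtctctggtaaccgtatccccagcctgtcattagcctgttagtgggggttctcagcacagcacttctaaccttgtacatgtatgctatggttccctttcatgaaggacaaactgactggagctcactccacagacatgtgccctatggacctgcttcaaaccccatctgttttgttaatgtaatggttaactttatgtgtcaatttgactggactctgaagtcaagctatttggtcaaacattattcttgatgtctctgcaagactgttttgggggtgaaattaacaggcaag
Gm20319, chr16:26755453-26755752, minus strand: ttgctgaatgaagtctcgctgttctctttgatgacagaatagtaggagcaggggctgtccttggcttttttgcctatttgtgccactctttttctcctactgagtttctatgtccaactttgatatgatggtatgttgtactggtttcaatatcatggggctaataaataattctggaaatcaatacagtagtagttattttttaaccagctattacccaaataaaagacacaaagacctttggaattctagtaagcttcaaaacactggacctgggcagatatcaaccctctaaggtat
Mir22hg, chr11:75461289-75461588, plus strand: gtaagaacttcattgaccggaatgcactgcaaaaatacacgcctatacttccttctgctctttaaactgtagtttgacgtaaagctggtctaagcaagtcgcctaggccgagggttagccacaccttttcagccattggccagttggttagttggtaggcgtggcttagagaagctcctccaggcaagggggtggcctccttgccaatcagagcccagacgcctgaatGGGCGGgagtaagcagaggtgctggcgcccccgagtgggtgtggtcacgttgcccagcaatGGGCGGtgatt
AI506816, chr5:23712618-23712917, minus strand: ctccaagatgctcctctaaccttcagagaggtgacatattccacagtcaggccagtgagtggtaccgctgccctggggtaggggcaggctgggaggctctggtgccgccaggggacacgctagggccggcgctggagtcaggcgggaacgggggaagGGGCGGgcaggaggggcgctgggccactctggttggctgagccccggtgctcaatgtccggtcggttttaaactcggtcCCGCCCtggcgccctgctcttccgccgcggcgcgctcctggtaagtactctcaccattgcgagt
2410006H16Rik, chr11:62602627-62602926, plus strand: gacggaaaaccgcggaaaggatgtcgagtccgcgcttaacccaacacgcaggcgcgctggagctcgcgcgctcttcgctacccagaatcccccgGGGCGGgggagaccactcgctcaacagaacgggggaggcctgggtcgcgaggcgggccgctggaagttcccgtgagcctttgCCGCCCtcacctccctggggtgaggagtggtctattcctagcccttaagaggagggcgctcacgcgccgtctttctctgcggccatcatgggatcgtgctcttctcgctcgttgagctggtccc

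The GC box letters stood in 3 of these 5 windows and not in those of BC024386 and Gm20319. A RefSeq promoter was matched by symbol for 197 of the 362 members, and for 125 of them its start lay within 100 bases of the deposited start. Searched on both strands, GGGCGG was present in 41.1% of the 197 member promoters and in 35.7% of all 32851 promoters of the same length. TATAAA was in 13.7% and 13.6%, and CACGTG, the E-box, in 11.2% and 7.15%. AGGTCA, a nuclear receptor site core, was in 18.3% of member promoters and 16.3% of all promoters. TTCNNNGAA was in 8.12% and 8.30%, and CAAAGTCCA in 1.02% and 0.475%. These shares describe letters in a window and were not tested.

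The members were mostly weakly expressed. Their mean level had a median of 2.44 FPKM and ranged from 1.004 to 1204 FPKM. There were 148 members under 2 FPKM and 45 at 10 FPKM or more. Protein-coding genes that passed the same limit, 10022 in number, had a median of 5.68 FPKM. Members were also shorter, with a median deposited length of 1184.5 bases against 4217.5 for the coding genes. As a result, a median of 66.6 fragments per mouse stood behind a member and 534 behind a coding gene, and 220 members had fewer than 100. The within-group SD of log2(FPKM + 1) had a median of 0.207 for members and 0.106 for coding genes.

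**Figure D1:**
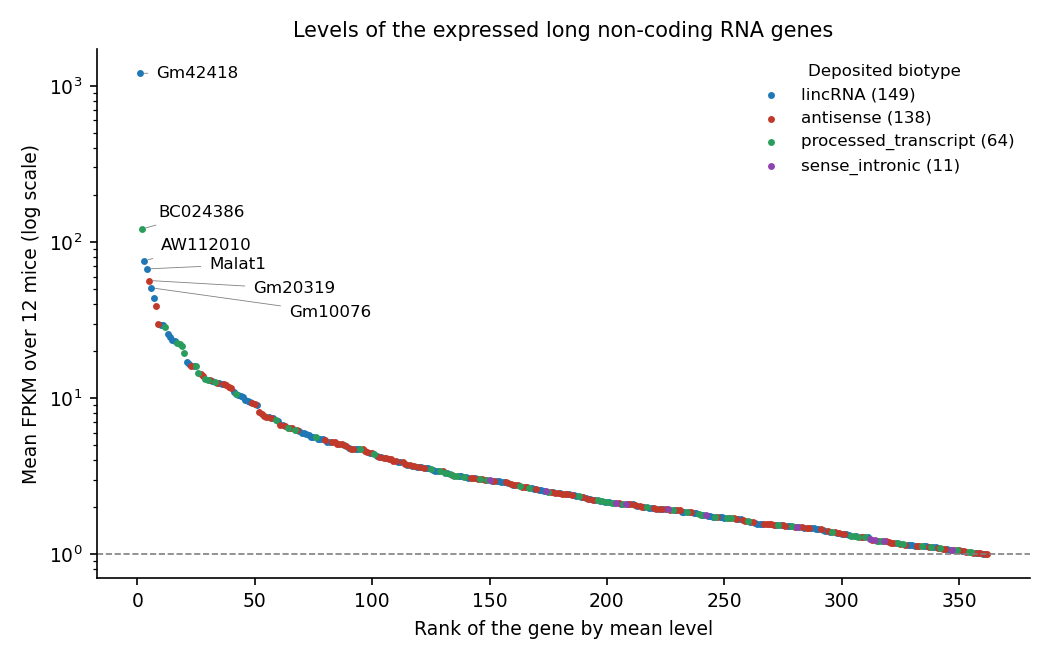
Mean FPKM over 12 mice (log axis) against rank for the 362 members, coloured by deposited biotype, with the 1 FPKM limit dashed. A single gene, Gm42418, stood above 1000 FPKM, and 45 members were at 10 FPKM or more.

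Gm42418 had the highest level, with 1011 to 1233 FPKM in ND, 1037 to 1388 in control, 1125 to 1510 in HYA and 795 to 1463 in LA mice. This locus on chromosome 17 is known for sequence shared with ribosomal RNA, so its reads can include ribosomal RNA. Its group ranges overlapped in all 6 comparisons. BC024386 followed at 121 FPKM. AW112010, a transcript known from immune cells, was at 75.9 FPKM and Malat1, a nuclear speckle RNA, at 67.1 FPKM. Gm20319 (56.6), Gm10076 (50.8), 1810008I18Rik (43.6), 0610005C13Rik (39.0), Gm47544 (29.7) and 1810058I24Rik (29.5) completed the 10 highest mean FPKM.

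Gm10076 varied widely within groups. It measured 113, 117 and 32.7 FPKM in the control mice and 97.4, 18.1 and 22.5 FPKM in the LA mice. Its control and ND ranges overlapped, and it was not called in any of the 6 comparisons. RefSeq lists it as a pseudogene, and reads of its parent gene may be split with it.

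The deposited biotype was not shared by every catalogue. RefSeq gave the class lncRNA to 226 members by symbol, protein-coding to 12, and pseudogene or transcribed pseudogene to 5, while 119 symbols had no match. The 17 members in other classes included Cct6a (28.7 FPKM), a chaperonin subunit gene, Ifi30 (21.5 FPKM), a lysosomal thiol reductase gene, and C4a (7.28 FPKM), a complement gene. C4a has a near-identical paralog, so its level is uncertain where reads could be split. At the limit of selection, Gm17025 (1.004 FPKM) and Gm10353 (1.006 FPKM) lay just inside, and Gm16973 (0.995 FPKM) and 2810002D19Rik (0.993 FPKM) just outside.

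By position in GRCm38, 185 members (51.1%) overlapped at least 1 protein-coding gene by at least 1 base. The overlap was on the opposite strand for 160, on the same strand for 20 and on both for 5. Exonic bases were shared with coding exons by 141 members, and 32 had more than 50% of their exonic bases inside coding exons. Another 34 stood head to head with a coding gene, their starts within 1000 bases on opposite strands, and 143 stood apart from coding genes. The library kit named in the labels does not mark strand, and how the authors counted reads in shared exons is not given in the sources used here. Where exons are shared, the fragments of a member and of its coding partner cannot be told apart.

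The comparison of control with ND asked what the high-fat diet changed. Of the 362 members, 48 were higher and 76 lower in control liver. Among them, 117 had ranges of 3 mice that did not overlap, a count that was not made over all genes tested and so has no background here. The calls are from limma at an adjusted p under 0.05, over the 11083 genes that reached the same limit of mean FPKM. Over all those genes, 16.2% were called higher and 19.1% lower, and for members the shares were 13.3% and 21.0%. The members' shares were thus near those of all genes tested. Their median difference was −0.06 on the log2(FPKM + 1) scale, beside −0.04 for all genes.

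The balance of directions depended on scaling. With FPKM rescaled to TPM, in which the values of every mouse have the same sum, the median difference of all genes moved by 0.21, and 77 members were called higher and 42 lower. Higher calls were thus 64.7% of the called members, against 38.7% on the FPKM scale. Relative to the median of all genes, the members' median was −0.02 on the FPKM scale and −0.05 on the TPM scale. No called member changed sign under TPM, and 90 of the 124 kept their call. The 16 members with the largest differences, described next, were called in the same direction under all 20 alternatives. Of those that rose, all except Gm42047 lay under the FPKM limit of selection in every ND mouse. Of those that fell, Gm12718 and 1700092C10Rik averaged less than that limit in control mice. Such members passed the limit through other groups, so their selection was not independent of the difference. The alternatives started from the same members and did not test this.

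**Figure D2:**
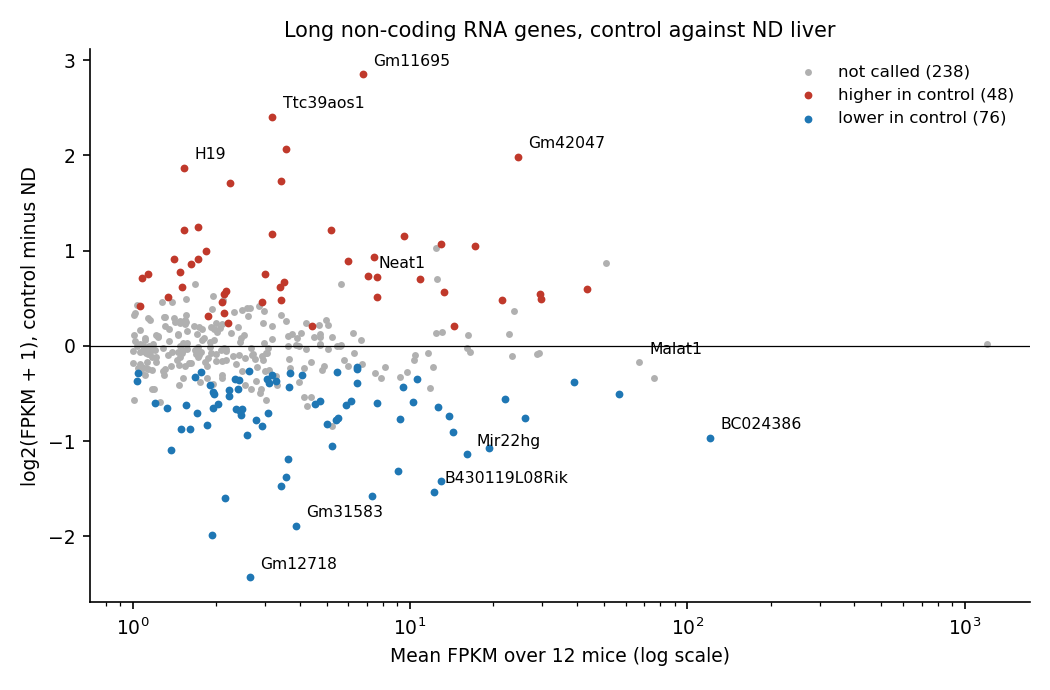
Difference of mean log2(FPKM + 1), control minus ND, against mean FPKM over 12 mice (log axis) for the 362 members. The 48 members called higher are red, the 76 called lower blue and the 238 others grey. The called members spanned −2.43 for Gm12718 to 2.85 for Gm11695.

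Among the members that rose, Gm11695 had the largest difference on the log2(FPKM + 1) scale. The 1 added to FPKM understates changes of genes with low values, so this order depends on the scale. Over the 20 alternatives the highest difference was 4.00 for Gm11695, 4.16 for Gm40923, 5.15 for Ttc39aos1 and 5.73 for H19. Gm11695, an antisense gene, measured 0.979, 0.928 and 0.547 FPKM in ND mice and 13.5, 13.6 and 9.49 FPKM in control mice. All control mice were above all ND mice, by 2.85 ± 0.19 (SE) on the log2(FPKM + 1) scale (limma adjusted p = 3.46e-06). HYA mice lay in between at 3.93, 6.78 and 6.06 FPKM. LA mice had 7.03, 10.1 and 8.16 FPKM and overlapped the control mice. Gm11695 lies at chr11:115462045-115463454 on the minus strand, across Slc16a5, a gene of the monocarboxylate transporter family, with 104 exonic bases shared.

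Ttc39aos1, whose start is 468 bases from that of Ttc39a on the other strand, was next. Its levels were 0.13, 0.07 and 0.19 FPKM in ND mice, which rest on 2, 1 and 3 fragments. Control mice had 6.34, 6.87 and 2.76 FPKM, and the difference was 2.41 ± 0.25 (limma adjusted p = 5.75e-05). The groups did not overlap. Ttc39a itself was called higher, with means of 0.0839 FPKM in ND and 3.16 FPKM in control mice.

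H19, the imprinted gene expressed from the maternal chromosome, was nearly silent in ND liver. Its level was 0.05 FPKM in each ND mouse, resting on 2 fragments in each. Control mice had 5.22, 2.06 and 1.96 FPKM from 276, 108 and 100 fragments. The difference was 1.87 ± 0.30 (limma adjusted p = 0.000727), and the control mouse with 5.22 FPKM stood well above the other 2. H19 lies at chr7:142575529-142578143 on the minus strand and overlaps no coding gene.

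Gm42047, a lincRNA, was the most abundant of the members with large increases. It measured 9.51, 9.26 and 6.56 FPKM in ND mice and 37.7, 36.1 and 34.3 FPKM in control mice. The ranges were far apart and the difference was 1.98 ± 0.16 (limma adjusted p = 9.48e-06). The coding row that overlaps it on the same strand, Gm20388, was listed at 0 in the ND and control mice.

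Gm30692 rose from 0.21 to 0.49 FPKM in ND mice to 1.99 to 8.56 FPKM in control mice, a wide spread within 1 group. For Gm45086 the ND range was 0.62 to 0.95 and the control range 3.14 to 6.06 FPKM. Gm40923 was at 0.08 to 0.18 FPKM in ND mice, from 1 or 2 fragments each, and at 1.69 to 4.25 FPKM in control mice. Snhg18, a snoRNA host gene that starts 148 bases from Sema5a, rose from 0.23 to 0.79 FPKM in ND mice to 2.02 to 3.04 FPKM in control mice. The differences of these 4 were 2.07, 1.73, 1.71 and 1.25 on the log2(FPKM + 1) scale.

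Of the members that fell, Gm12718 had the largest difference. It measured 6.00, 8.50 and 8.45 FPKM in ND mice and 0.33, 1.38 and 0.27 FPKM in control mice, where 5, 21 and 4 fragments were counted. All control mice were below all ND mice, by 2.43 ± 0.28 (SE) on the log2(FPKM + 1) scale (limma adjusted p = 9.86e-05). This lincRNA spans chr4:103382500-103492040 on the plus strand and overlaps no coding gene.

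Gm31583 measured 5.38, 6.75 and 12.8 FPKM in ND mice and 1.56, 1.82 and 0.87 FPKM in control mice. Its difference was −1.89 ± 0.27 (limma adjusted p = 0.000401). HYA mice had 4.99, 4.27 and 3.21 FPKM and LA mice 1.56, 2.18 and 1.19 FPKM. The 3 HYA mice were above all control and LA mice, but the adjusted p of HYA against control was 0.0572 in the same limma fit.

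B430119L08Rik fell from 20.5, 24.9 and 23.2 FPKM in ND mice to a mean of 7.47 ± 2.38 FPKM (SD, n = 3) in control mice, the lowest of which had 5.27 FPKM. The difference was −1.53 ± 0.20 (limma adjusted p = 0.00024). It runs opposite Serpina1c, a gene of the alpha-1 antitrypsin family secreted by hepatocytes, and shares 429 exonic bases with it. Serpina1c had 2323 to 2556 FPKM in ND mice and 541 to 858 FPKM in control mice.

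Gm30262 had 23.0, 22.5 and 21.8 FPKM in ND mice and 5.76, 10.4 and 7.75 FPKM in control mice. C4a was at 8.40 to 21.3 FPKM in ND mice and at 3.17 to 6.12 FPKM in control mice. For 1700092C10Rik the ND range was 3.42 to 6.67 and the control range 0.25 to 1.19 FPKM. Gm15611 ranged from 3.84 to 5.89 FPKM in ND mice and from 0.46 to 2.26 FPKM in control mice, and Gm35696 from 5.89 to 7.84 and from 1.04 to 3.70 FPKM. The differences of these 5 lay between −1.98 and −1.42 on the log2(FPKM + 1) scale, with no overlap of groups.

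**Figure D3:**
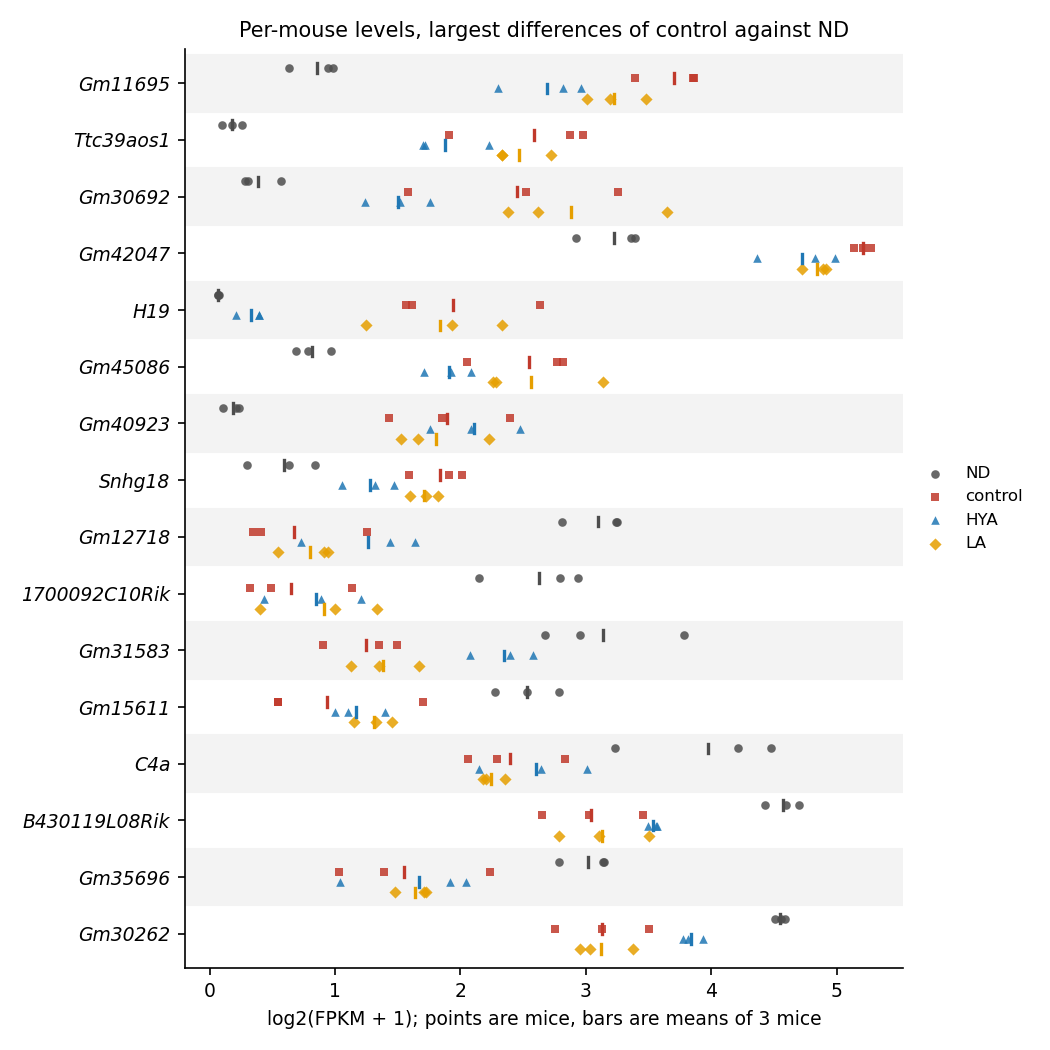
Levels of the 16 members with the largest differences of control against ND, as log2(FPKM + 1) on the x axis. Points are mice, short bars are means of 3 mice, and colour and marker give the group. The upper 8 genes were lower in all ND mice than in all control mice, and the lower 8 higher.

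Several of the most abundant members also changed. BC024386 measured 164, 177 and 173 FPKM in ND mice and 71.6, 105 and 87.9 FPKM in control mice, a difference of −0.97 ± 0.12 (limma adjusted p = 0.000189). Gm20319 fell from 62.3 to 66.8 FPKM in ND mice to 39.5 to 54.8 FPKM in control mice, and this call was lost under TPM. In contrast, 1810008I18Rik rose from a mean of 29.8 to 44.8 FPKM, Gm47544 from 23.0 to 33.2 FPKM and 1810058I24Rik from 22.2 to 33.2 FPKM, and the call of 1810058I24Rik held under 15 of 20 alternatives. Gm42418 and AW112010 were not called, nor was Malat1, with 68.7, 76.8 and 72.1 FPKM in ND mice and 68.4, 68.3 and 56.9 FPKM in control mice.

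Calls were made in 40.6% of the 143 members that stood apart from coding genes and in 27.0% of the 141 that shared exonic bases with one. The shares were 35.3% of the 34 head-to-head members and 36.4% of the 44 that overlapped without shared exonic bases. Beside these, 35.3% of all genes tested were called. The share called also differed by level, and level was not compared between these classes. Members at 10 FPKM or more were called in 53.3% of cases, those from 2 to 10 FPKM in 40.8% and those under 2 FPKM in 20.9%. Shares by level were not made over all genes tested, so these have no background here. Of the 294 members whose mean reached 1 FPKM in each of the 4 groups, 30 were higher and 67 lower. The other 68 members reached that level in some groups only, so that a difference between groups was partly built into their selection, and 18 of them were higher and 9 lower.

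Cell type markers moved in the same comparison. The 8 hepatocyte markers summed to 44370 to 46170 FPKM in ND mice and 28570 to 32690 FPKM in control mice, and 6 of the 8 were called lower. The 8 stellate cell and fibroblast markers summed to 33.4 to 43.3 FPKM in ND mice and 73.8 to 96.8 FPKM in control mice, with 5 called higher. The 3 tested of 6 bile duct markers were part of a sum of 19.2 to 27.9 FPKM in ND and 78.1 to 172 FPKM in control mice, with 2 called higher. Macrophage markers summed to 200.4 to 309.8 FPKM in ND mice and to 294.5 to 305.7 FPKM in control mice, with 3 of 8 called higher and 1 lower. Endothelial markers summed to 73.4 to 92.4 and 104.8 to 107 FPKM, with 4 of 8 called higher. No listed marker was at 0 in all 12 mice, and zeros within single groups were not checked. The part of these shifts in the members' differences was not tested. In bulk liver, fewer cells of a type and less RNA per cell cannot be told apart.

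The snoRNA host genes encode snoRNAs in their introns, and their spliced transcripts are often held at low level by decay. Of the 20 listed hosts, 13 were members. In control against ND, 1 was called higher (Snhg18), 4 lower (Gas5, Snhg6, Snhg8 and Snhg12) and 8 were not called. Gas5, named for its rise in growth-arrested cells, measured 7.16, 8.27 and 7.43 FPKM in ND mice and 6.36, 6.46 and 5.96 FPKM in control mice, a difference of −0.25 ± 0.07 (limma adjusted p = 0.0162). Snhg8 had 11.1 to 13.1 FPKM in ND mice and 8.61 to 10.4 FPKM in control mice. These 2, Snhg6 and Snhg12 lost their calls under TPM and with voom on recovered fragments. Of the 20 alternatives, 16 kept the call of Gas5, 15 that of Snhg6, 13 that of Snhg8 and only 4 that of Snhg12, whose ND and control ranges overlapped. Snhg1, Snhg3, Snhg5, Snhg15, Snhg17, Snhg20, Zfas1 and Epb41l4aos had differences between −0.27 and 0.37 and were not called. The median of the 13 was −0.04, the same as that of all genes. By coordinates, 18 members contained a snoRNA row, and 3 of them were called higher and 4 lower. Over all genes tested, 16.2% were called higher and 19.1% lower.

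Of the 4 nuclear architecture RNAs among the members, only Neat1 changed. This scaffold of paraspeckles had 4.34, 5.53 and 4.17 FPKM in ND mice and 10.1, 7.05 and 8.25 FPKM in control mice, a difference of 0.73 ± 0.13 (limma adjusted p = 0.00145). HYA mice had 6.60, 6.21 and 6.26 FPKM and LA mice 9.94, 8.86 and 7.54 FPKM. Firre, an X-linked RNA, lay between 5.35 and 5.82 FPKM in all 12 mice, and Tug1 between 3.54 and 4.23 FPKM. With Malat1, these 3 were not called in any of the 6 comparisons.

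Both imprinted members were called higher in control than in ND liver, beside 16.2% of all genes tested. H19 lay under the limit of selection in every ND mouse, so its selection was not independent of the difference. Beside H19, Peg13, which lies inside an intron of Trappc9, had 1.42 to 2.18 FPKM in ND mice and 2.30 to 2.63 FPKM in control mice, a difference of 0.35 ± 0.11 (limma adjusted p = 0.0266). This call held under 14 of 20 alternatives and was lost without a filter, with only the 2 groups fitted, and without ND mouse 2 or 3 or control mouse 1 or 2. The list held 9 imprinted genes, and the others were in the table but were not members.

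Of 16 listed microRNA host genes, 12 were in the table and 2 were members. Mir22hg fell from 27.7, 26.0 and 22.4 FPKM in ND mice to 12.2, 10.9 and 9.78 FPKM in control mice. Its difference was −1.14 ± 0.10 (limma adjusted p = 2.4e-05). Mir142hg, whose microRNA is typical of blood cells, had 0 to 1.90 FPKM in ND mice and 0.86 to 3.23 FPKM in control mice from at most 18 fragments, and it was not called.

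The list for liver metabolism and fibrosis held 18 genes, of which 9 were members. In control against ND, 2 were higher (H19 and Neat1), 4 lower and 3 not called, beside 16.2% higher and 19.1% lower among all genes tested. Hnf4aos, which runs antisense to the hepatocyte factor gene Hnf4a, fell from 6.09, 6.01 and 6.47 FPKM to 1.66, 2.94 and 1.97 FPKM. The difference was −1.19 ± 0.17 (limma adjusted p = 0.000397). Hnf4a fell less on the same scale, from a mean of 151.7 to 104.4 FPKM, a difference of −0.54. Gas5 and 0610005C13Rik also fell, and both lost their call under TPM. Malat1 and Fendrr were among those not called.

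Called members were then set beside their coding neighbours. For control against ND, 42 overlapping pairs had a called member and a tested coding gene. The coding gene was called in the same direction in 22 of them (6 higher and 16 lower), in the opposite direction in 3, and not called in 17. Exonic bases were shared in 31 of these pairs, of which 17 moved the same way, 1 moved the opposite way and 13 had an uncalled coding gene. In the 11 pairs without shared exonic bases the counts were 5, 2 and 4, and all 5 were lower. Of 12 head-to-head pairs, the coding gene moved the same way in 7 and was not called in 5. Over all 10022 coding genes tested, 36.6% were called in this comparison, counting both directions.

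The pairs that fell together included genes of secreted and metabolic liver proteins. Sardhos fell by 0.82 and Sardh, for sarcosine dehydrogenase, by 0.80 on the log2(FPKM + 1) scale. Gm12909 fell by 0.73 and Mup3, a major urinary protein gene whose start is 946 bases away, by 1.41. CT027991.1 fell by 0.44 and Ahsg, the fetuin-A gene, by 0.88. Mir22hg overlapped Tlcd2 on the same strand with 206 exonic bases shared, and Tlcd2 fell by 0.79.

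Pairs that rose together included Gm47544 (0.49) with Apoa5 (0.36), an apolipoprotein gene, and Gm11175 (0.72) with Jund (0.75), a transcription factor gene. Both of these non-coding genes had 100% of their exonic bases inside exons of the coding partner. For Gm47544 the means were 23.0 FPKM in ND and 33.2 FPKM in control mice, beside 388 and 499 FPKM for Apoa5. Of the 8 pairs with more than 50% of the member's exonic bases shared, 6 moved the same way and none the opposite way. Fragments in shared exons cannot be told apart, so member and partner are not separate measurements there.

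In the 3 opposite pairs, Gm48163 rose by 0.72 while Top2b, a topoisomerase gene, fell by 0.27, and Gm12195 rose by 0.75 while Tbc1d9b fell by 0.46. Gm15401 fell by 0.87 and Tcf7l1, a transcription factor gene, rose by 0.23. The first 2 pairs share no exonic bases.

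**Figure D4:**
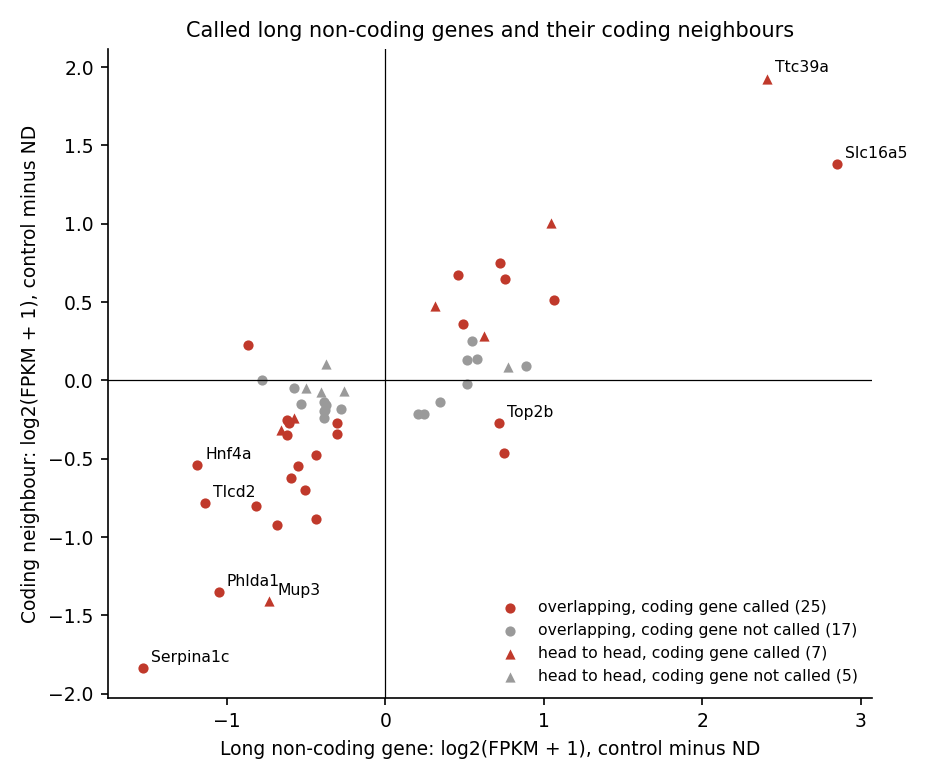
Control minus ND difference of log2(FPKM + 1) for each called member (x axis) and its tested coding neighbour (y axis). Circles are overlapping pairs, triangles head-to-head pairs, and red marks coding genes that were called. Of the 42 overlapping pairs, 22 had both genes called in the same direction and 3 in opposite directions. Exonic bases were shared in 17 of the 22.

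HYA against control asked whether the supplement altered gene levels on the high-fat diet. Of the 362 members, 6 were called higher and 4 lower (1.66% and 1.10%). Over all genes tested the shares were 1.57% higher and 1.23% lower, so the members' shares were near the background. Of the 4 lower calls, 3 (H19, Gm11695 and AI506816) were among the 68 members that reached 1 FPKM in some groups only, so their selection was not independent of the difference. Among the 294 others, 6 were higher and 1 lower. The members' median difference was 0.09 on the log2(FPKM + 1) scale, beside 0.02 for all genes. Under TPM, 4 members were higher and 8 lower, and the median of all genes moved by −0.11. These calls were sensitive to single mice. No member was called without HYA mouse 2, or when only the 6 mice of the 2 groups were fitted, and 1 was called without control mouse 1.

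B630019A10Rik held its call under 18 of 20 alternatives, the most of the 10. This antisense gene lies on chromosome 16, 294 bases from St6gal1, a sialyltransferase gene. It measured 5.38, 5.69 and 5.53 FPKM in control mice, 7.57, 7.77 and 7.10 FPKM in HYA mice and 6.09, 6.18 and 6.14 FPKM in LA mice. The HYA mice were above all 9 others, since ND mice had 6.57 to 6.69 FPKM. The difference from control was 0.38 ± 0.05 (limma adjusted p = 0.0129).

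H19 had the largest difference. It measured 5.22, 2.06 and 1.96 FPKM in control mice, and 0.31, 0.16 and 0.31 FPKM in HYA mice from 15, 7 and 19 fragments. LA mice had 4.02, 1.37 and 2.83 FPKM. All HYA mice were below all control and LA mice. H19 was thus lower in HYA than in control liver by 1.61 ± 0.30 on the log2(FPKM + 1) scale (limma adjusted p = 0.0289), and it held its call under 14 of 20 alternatives. The call was lost without control mouse 1, without any 1 of the HYA mice, without a filter on low values and with only the 2 groups fitted.

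AI506816 and Gm11695 were also lower. AI506816 had 2.83, 2.06 and 2.76 FPKM in control mice, 1.13, 0.85 and 1.17 FPKM in HYA mice, 1.69 to 2.34 FPKM in LA mice and 0.42 to 0.62 FPKM in ND mice. It contains 1 snoRNA row, and its difference was −0.79 ± 0.11 (limma adjusted p = 0.0166). Gm11695, given above for all 4 groups, differed by −1.01 ± 0.19 (limma adjusted p = 0.0302). The first held its call under 17 alternatives and the second under 14.

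2410006H16Rik, which contains 3 snoRNA rows, had 16.9, 17.9 and 16.8 FPKM in control mice. Its levels were 12.2, 12.3 and 12.7 FPKM in HYA mice, 13.6, 11.7 and 11.4 FPKM in LA mice and 10.4 to 12.8 FPKM in ND mice. Control mice were above the 9 others, and the HYA difference was −0.44 ± 0.08 (limma adjusted p = 0.0287). The call held under 13 of 20 alternatives.

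BC024386 was the most abundant of the members called higher. Control mice had 71.6, 105 and 87.9 FPKM, HYA mice 124, 149 and 135 FPKM and LA mice 81.0, 93.5 and 91.8 FPKM. All HYA mice were above all control and LA mice and below all ND mice. The difference from control was 0.63 ± 0.12 (limma adjusted p = 0.031), held under 13 alternatives.

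The other 4 increases passed the threshold narrowly, with limma adjusted p between 0.0478 and 0.0492, and held under 4 to 6 of the 20 alternatives. Gm30262 had 5.76 to 10.4 FPKM in control and 12.7 to 14.3 FPKM in HYA mice. Gm20319 had 39.5 to 54.8 and 60.3 to 74.4 FPKM, and Tbx3os1 1.15 to 2.08 and 2.45 to 2.98 FPKM. Mir22hg had 9.78 to 12.2 FPKM in control mice and 15.0 to 15.9 FPKM in HYA mice. Gm20319 runs opposite Il1rap, the interleukin 1 receptor accessory gene, and shares 552 exonic bases with it. Il1rap was called higher as well, at 6.93 to 8.93 FPKM in control and 10.2 to 11.4 FPKM in HYA mice, as was Tlcd2 beside Mir22hg. Tbx3 and Slc16a5, beside Tbx3os1 and Gm11695, were not called.

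**Figure D5:**
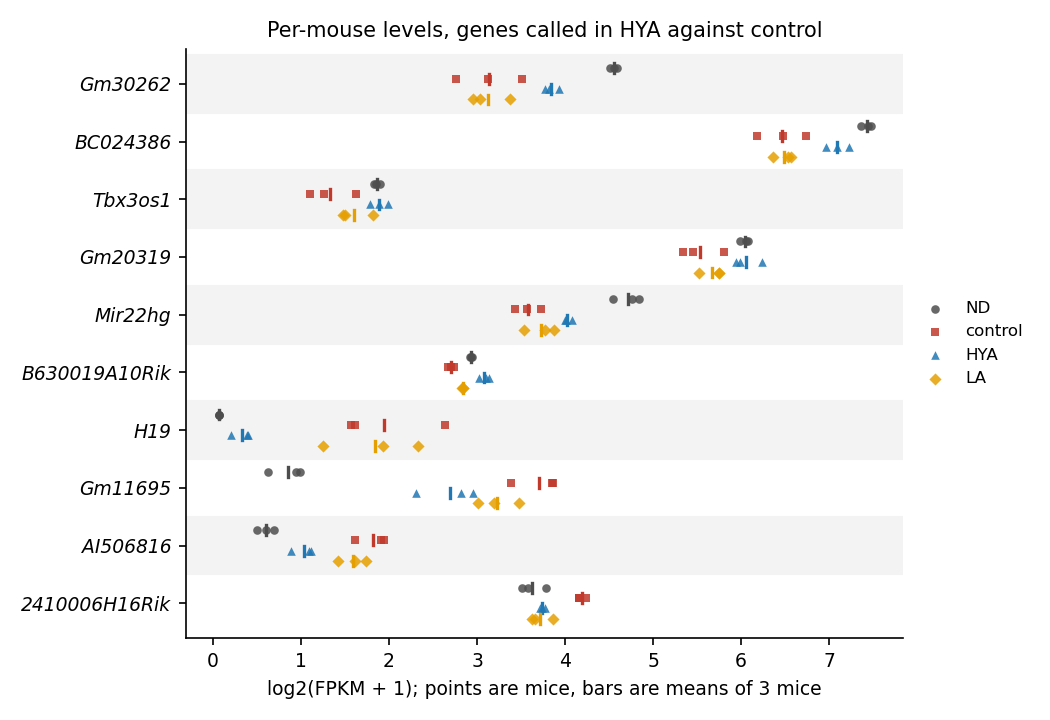
Levels of the 10 members called between HYA and control, as log2(FPKM + 1) on the x axis, with the 3 mice of each group as points and their mean as a bar. The upper 6 genes were higher in all HYA mice than in all control mice, and the lower 4 lower. LA mice overlapped control mice for 8 of the 10, the exceptions being B630019A10Rik and 2410006H16Rik.

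Marker sums differed here too. Hepatocyte markers summed to 28570 to 32690 FPKM in control mice and 36920 to 38210 FPKM in HYA mice, with 1 of 8 called higher. Stellate cell and fibroblast markers summed to 73.8 to 96.8 and 59.2 to 72.0 FPKM, with 3 of 8 called lower. Bile duct markers summed to 78.1 to 172 and 38.6 to 52.5 FPKM, with 2 of the 3 tested called lower. None of the macrophage or endothelial markers was called. The part of these markers in the 10 calls was not tested. Of the listed genes, H19 was the imprinted gene called and Mir22hg the microRNA host, and no listed snoRNA host or nuclear architecture gene was called. By coordinates, 2 of the 18 members that contain a snoRNA row were called lower, beside 1.23% of all genes tested. These were AI506816 and 2410006H16Rik, which were not on the list.

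LA against control served as the comparison with the unmodified fatty acid. No member was called by limma, and 0% of all genes tested were called. At an unadjusted p under 0.05 there were 24 members (6.63%) and 294 genes in all (2.65%). The median difference was 0.01 for members and 0.00 for all genes. Under TPM and with voom no member was called either. With 3 mice in each group this does not show that the groups were alike.

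The lowest p belonged to 2410006H16Rik, lower in all LA mice than in all control mice by 0.47 ± 0.08 on the log2(FPKM + 1) scale (limma adjusted p = 0.528). Gm45552 had 1.49 to 2.17 FPKM in control and 0.69 to 1.08 FPKM in LA mice. Gm11967 had 4.17 to 4.88 and 5.33 to 8.11 FPKM. The groups did not overlap for either gene, and the limma adjusted p was 0.999 for both.

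HYA and LA, which differ by a hydroxyl group and a double bond, were given at the same 1% for the same time, and 1 pair of compounds was compared. No member was called by limma, beside 0.487% of all genes tested, and 70 members (19.3%) had an unadjusted p under 0.05, near the 17.2% of all genes. Under TPM 1 member was higher and 4 lower, and with voom 1 and 3. The lowest adjusted p, 0.0527, belonged to B630019A10Rik, which was higher in all HYA than in all LA mice by 0.25 ± 0.05 on the log2(FPKM + 1) scale. H19 was lower in all HYA mice by 1.505 ± 0.30 (limma adjusted p = 0.0569). BC024386 was higher in all HYA mice by 0.61 ± 0.12 (limma adjusted p = 0.0614). The 95% intervals of these differences, not adjusted for the number of genes, were 0.14 to 0.35, −2.16 to −0.85 and 0.34 to 0.88. Under TPM, H19 (limma adjusted p = 0.0298) and BC024386 (limma adjusted p = 0.0474) passed the threshold, and the lowest and highest limma adjusted p in the 20 alternatives were 0.0156 and 0.239 for H19, 0.0165 and 0.246 for BC024386, and 0.035 and 0.239 for B630019A10Rik. All 3 also passed with the replicate block and without control mouse 1 or 2, which are fits on the FPKM scale. In the main fit these 3 missed the threshold, which does not show that the compounds act alike.

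Against ND, 38 members were higher and 25 lower in HYA liver, where 8.72% of all genes were called higher and 7.85% lower. In LA liver 40 were higher and 60 lower, where 14.4% of all genes were higher and 16.6% lower. The shares of the members were 10.5% and 6.91% for HYA, and 11.05% and 16.6% for LA. These 2 comparisons share the ND mice with each other and with control against ND, so they are given side by side only. H19 was called higher than in ND mice in LA liver (1.77, limma adjusted p = 0.00123) and had a difference of 0.27 in HYA liver (0.582). This last difference rests on low values, whose changes the 1 added to FPKM understates. H19 had 2 fragments in each ND mouse and 15, 7 and 19 in HYA mice, and all HYA mice were above all ND mice. Neat1 was called higher in LA liver (0.78, limma adjusted p = 0.00115), and its difference was 0.38 in HYA liver (0.0699). Mir22hg was called lower in both, by 0.69 in HYA and 0.99 in LA liver. Gm40923 was called higher in both, by 1.92 and 1.62.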

How the data were processed

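The authors deposited FPKM values per gene and mouse. Per the submitters' processing notes the tools were fastp, HISAT2 2.0.5 and featureCounts 1.5.0-p3, on GRCm38. The strand setting, the treatment of reads in overlapping genes and the annotation release are not given in the sources used here. The study's methods name TPM, but the deposited columns sum to 342146 to 429286, so the values were treated as FPKM. Multiplied by gene length, 100% of values came out as whole fragments (tolerance 0.01), with totals of 17169064 to 25220880 per mouse. Intervals are for differences between group means and are based on the spread between mice.

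Members and gene lists were chosen with earlier results of these data known. Levels as log2(FPKM + 1) were fitted with limma 3.58.1 (R 4.3.3, empirical Bayes with trend) over the 12 mice, for the 11083 genes averaging 1 FPKM or more. The 6 comparisons were two-sided, adjusted by Benjamini-Hochberg over all genes tested, and called at an adjusted p under 0.05. The fit was tested on simulated data. Changes were set there only in genes with more fragments, and all genes had the same relative spread. That test therefore does not cover members with few fragments. Named genes were, for the comparisons other than those of HYA and LA with ND, the 8 largest called differences in each direction with ranges that did not overlap (the 3 lowest p where none was called), the 10 highest levels, the 2 nearest the limit on each side, listed genes, and called members with coding neighbours. Neighbours came from the deposited coordinates, and exons from the reference annotation, GENCODE M21, which gave identical coordinates for 98.2% of genes. Alternatives were pseudocount 0.1, no filter, a filter of 10 mean fragments, TPM, median-ratio size factors, voom on the recovered fragments, only the 2 groups compared, a replicate block, leaving out each mouse, and a fold change threshold of 1 on the log2 scale. Some named genes and coding neighbours are not reported here.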

Additional observations from a re-analysis of the deposited data

How the results depend on the processing

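No member called in a comparison had the opposite sign there under the alternatives that tested it, but counts moved; signs of members not called were not compared. For control against ND, members called higher and lower numbered 77 and 42 under TPM, lower calls 42 with voom, and 14 and 15 with a log2 fold change above 1; the median became 0.12 under TPM. For HYA against control, higher calls numbered 3 with pseudocount 0.1, 1 without a filter, 0 with only the 2 groups, 10 with the replicate block and 0 above a log2 fold change of 1. Lower calls numbered 1 without a filter, 8 under TPM and with voom, 0 with only the 2 groups and 2 above that fold change; the median was 0.14 with pseudocount 0.1 and 0.0158 under TPM. For HYA against LA, higher calls numbered 1 under TPM and with voom, 2 with only the 2 groups and 5 with the replicate block. Lower calls numbered 1 with pseudocount 0.1, 4 under TPM, 3 with voom and 2 with the block, and the median was −0.0051 under TPM. For HYA against ND, higher calls numbered 23 without a filter and 13 above the fold change, lower calls 8 above it, and the median was 0.0795 under TPM. For LA against ND, higher calls numbered 79 under TPM and 14 above the fold change, lower calls 32 under TPM and with voom and 12 above the fold change, and the median was 0.11 under TPM. The cause of these shifts was not tested.

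Leaving out 1 mouse at a time gave 0 to 12 higher and 0 to 6 lower members for HYA against control, the highest without control mouse 2 and the lowest without HYA mouse 2. It gave 0 to 5 higher and 0 to 2 lower members for HYA against LA, the highest without control mouse 2. For HYA against ND it gave 25 to 39 higher members (25 without HYA mouse 1) and medians of −0.033 to 0.0262. Medians ranged from −0.1019 (without LA mouse 2) to −0.0507 for LA against ND, and from −0.0104 to 0.0411 (without control mouse 2) for LA against control.

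Pairing of mice by replicate number was not seen in the deviations from group means, but with 3 mice per group these cannot exclude it. Deviations of same-numbered mice correlated at −0.396 to 0.294 over 18 pairs, 3 of them over 0.1. Those of other mice correlated at −0.375 to 0.393 over 36 pairs, 7 of them over 0.1. With the replicate block, 110 of the 124 members called between control and ND and 9 of the 10 called between HYA and control kept their call. Low fragment counts limit the members: 220 had a mean under 100 fragments per mouse.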
